A study of Mus musculus with 12 samples.

Results

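Collagens are extracellular proteins built from 3 chains that wind around each other into a triple helix. Glycine, the only amino acid small enough for the centre of the helix, recurs along it in a repeat of triplets. Fibrillar collagens form the fibres of connective tissue, whereas type IV collagen forms the sheet of the basement membrane on which an epithelium rests. In the thyroid the basement membrane surrounds each follicle, the hollow sphere of epithelium that makes thyroid hormone, and also the capillaries around it. The remaining types sit on fibrils, link membranes to stroma, span cell membranes or form networks of their own. Some of them are typical of one tissue, as *Col2a1*, *Col9a2*, *Col10a1* and *Col11a2* are of cartilage.

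The collagen chain genes of the mouse were taken as all genes whose symbol is Col, a type number, the letter a and a chain number. This gave 44 of the 55536 genes in the deposited tables. There were 11 fibrillar chains (types 1, 2, 3, 5, 11, 24 and 27), 6 basement membrane chains (type 4) and 27 others. RNA sequencing had been done on thyroids of 5 affected and 7 unaffected mice, with 1 library for each mouse. The affected mice were B6NTac mice with thyroid dysplasia, the congenital malformation that the study traced to a LINE-1 retrotransposon in intron 25 of the thyroglobulin gene *Tg*. Of the unaffected mice, 6 were B6NCrl mice (replicates 21 to 26) and 1 was a B6NTac knockout mouse without the phenotype (replicate 14), whose knocked-out gene is not given in the sources used here. The labels give neither sex, age nor the LINE-1 genotype of a mouse, and breeder and phenotype coincide except in the 1 unaffected B6NTac mouse, so strain and phenotype cannot be told apart.

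The libraries held 20170500 to 23319948 counts in affected mice and 11434901 to 22401136 in unaffected mice. *Tg* averaged 170859 CPM in affected and 240700 CPM in unaffected mice (log2 fold change -0.49 ± 0.21 SE, edgeR adjusted p = 0.14), where CPM are counts scaled to a common library total with edgeR's TMM factors. All 10 follicle markers were detected, and in summed level they lay between 101128 and 256391 CPM in affected and between 210862 and 304500 CPM in unaffected mice. The libraries also held RNA of neighbouring tissues in amounts that differed between mice. Skeletal muscle markers summed to between 22.5 and 99382 CPM, and parathyroid markers to between 46.3 and 9420 CPM. The lowest parathyroid sum was that of affected replicate 4, and the next lowest was 3618 CPM in unaffected replicate 21. Affected replicate 3 had the highest sum of cartilage markers (624 CPM, against 86.9 to 197 in the other 11 mice), and affected replicate 1 the highest sums of adipocyte and Schwann cell markers. *Sox9* made up most of the cartilage sum in those other 11 mice, at 80.5 to 193 CPM, and 212 CPM of it in replicate 3. In whole tissue, fewer cells of a type and less RNA per cell cannot be told apart.

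The repeat that makes the triple helix can be read in the genes. In coding exons of the reference annotation (GENCODE release M21, GRCm38), glycine codons, all of which begin with GG, open each triplet of codons. The exons below belong to chains that passed the test between affected and unaffected mice, and the capitals mark the glycine codons. They lie at chr1:82643209-82643298 (plus strand), chr1:82539954-82539998 (minus), chr10:76719623-76719676 (minus), chr10:76611948-76612001 (minus) and chr10:77078457-77078519 (minus).
Col4a3 exon 3: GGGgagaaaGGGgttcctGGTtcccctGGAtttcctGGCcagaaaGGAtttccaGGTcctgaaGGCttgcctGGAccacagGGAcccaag
Col4a4 exon 6: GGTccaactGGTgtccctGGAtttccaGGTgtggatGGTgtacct
Col6a1 exon 9: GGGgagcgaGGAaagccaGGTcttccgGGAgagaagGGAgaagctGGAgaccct
Col6a2 exon 6: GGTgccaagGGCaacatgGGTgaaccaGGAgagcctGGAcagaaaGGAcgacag
Col18a1 exon 9: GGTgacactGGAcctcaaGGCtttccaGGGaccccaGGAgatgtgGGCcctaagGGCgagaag
All 5 exons begin with a glycine codon and hold whole triplets, but their lengths of 90, 45, 54, 54 and 63 bases differ. The 54-base exon is the common unit of the fibrillar genes, which had 21 to 33 coding exons of that length, whereas the 6 type IV genes had 1 to 3. The longest unbroken run of triplets held 337 to 344 triplets in 9 of the 11 fibrillar chains, 216 in *Col24a1* and 217 in *Col27a1*. In type IV chains the longest run held only 39 to 66 triplets, and the repeat was split into 22 to 27 runs of at least 5 triplets. These interruptions are known to make type IV collagen flexible enough to form a sheet.

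Type IV genes also differ from the rest in their arrangement. They lie in pairs, head to head on opposite strands, and no other pair among the 44 genes had starts within 2000 bases of each other on opposite strands. The starts of *Col4a4* and *Col4a3* on chromosome 1 are separated by 71 bases, those of *Col4a6* and *Col4a5* on chromosome X by 1308 bases, and the first exons of *Col4a1* and *Col4a2* on chromosome 8 overlap by 22 bases. For *Col4a3* and *Col4a4* the whole stretch between the starts is shown, because both genes are read away from it. Of the longer stretch between *Col4a5* and *Col4a6* only the part next to each start is shown, and for *Col4a1* and *Col4a2* the shared first bases with a few on either side. The sequences are from RefSeq (GRCm38.p6), read on the plus strand except that before *Col4a6*, and the capitals mark CCAAT or GGGCGG, searched on either strand.
Col4a3 and Col4a4, chr1:82586850-82586920: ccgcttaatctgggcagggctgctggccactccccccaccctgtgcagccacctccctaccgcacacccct
Col4a5, chrX:141475169-141475384: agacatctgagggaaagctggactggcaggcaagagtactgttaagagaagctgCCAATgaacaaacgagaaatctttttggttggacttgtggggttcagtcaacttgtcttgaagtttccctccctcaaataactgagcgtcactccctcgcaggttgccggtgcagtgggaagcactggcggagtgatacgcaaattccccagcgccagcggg
Col4a6, chrX:141474077-141474326, minus strand: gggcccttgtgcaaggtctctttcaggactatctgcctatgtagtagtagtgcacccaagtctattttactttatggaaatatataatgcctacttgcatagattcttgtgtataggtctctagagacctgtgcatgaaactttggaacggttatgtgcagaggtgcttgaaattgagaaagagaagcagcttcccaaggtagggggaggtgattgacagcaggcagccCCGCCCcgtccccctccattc
Col4a1 and Col4a2, chr8:11312801-11312830: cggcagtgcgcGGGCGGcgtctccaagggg
CCAAT was found in 37.4%, GGGCGG in 35.7% and TATAAA in 13.6% of the 32851 promoter windows of the mouse, which reach from 250 bases before a start to 50 bases after it. A window was given for 35 of the 44 collagen genes, of which 13 held CCAAT, 22 held GGGCGG and 5 held TATAAA. None of the 3 motifs occurred in the 71 bases between *Col4a3* and *Col4a4*, where 69.0% of the bases were G or C. These matches describe the letters only.

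Of the 44 chains, 41 passed the filter on low counts and were tested. Between affected and unaffected mice 12 of the 41 passed the test (edgeR's quasi-likelihood test, Benjamini-Hochberg adjusted p under 0.05 over all 19661 genes tested). This was 29.3% of the chains, beside 13.7% of all genes tested. Higher in affected mice were 7 chains, 17.1% of those tested beside 7.63% of all genes, and lower were 5 chains, 12.2% beside 6.1% of all genes. The higher chains were *Col6a1*, *Col6a2*, *Col18a1*, *Col5a2*, *Col20a1*, *Col17a1* and *Col28a1*, and the lower ones were *Col4a3*, *Col4a4*, *Col4a5*, *Col4a6* and *Col15a1*. When library totals were taken without *Tg*, the median of all genes shifted by -0.14 on the log2 scale and the higher share of the called chains moved from 58.3% to 44.4%, with no called chain changing direction. In 4 of the 41 chains (9.76%) the values of the groups did not overlap, beside 7.14% of all genes tested. These were *Col4a3* and *Col4a4*, lower in every affected mouse, and *Col6a1* and *Col20a1*, higher in every affected mouse. For 10 of the 12 called chains the unaffected B6NTac mouse lay within the range of the 6 B6NCrl mice, beside 25 of all 41 tested chains. For *Col6a2* and *Col5a2* it lay below that range, farther from the affected mice. This mouse was in the unaffected group of the test, so its place among the called chains is not independent of the calls.

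**Figure D1:**
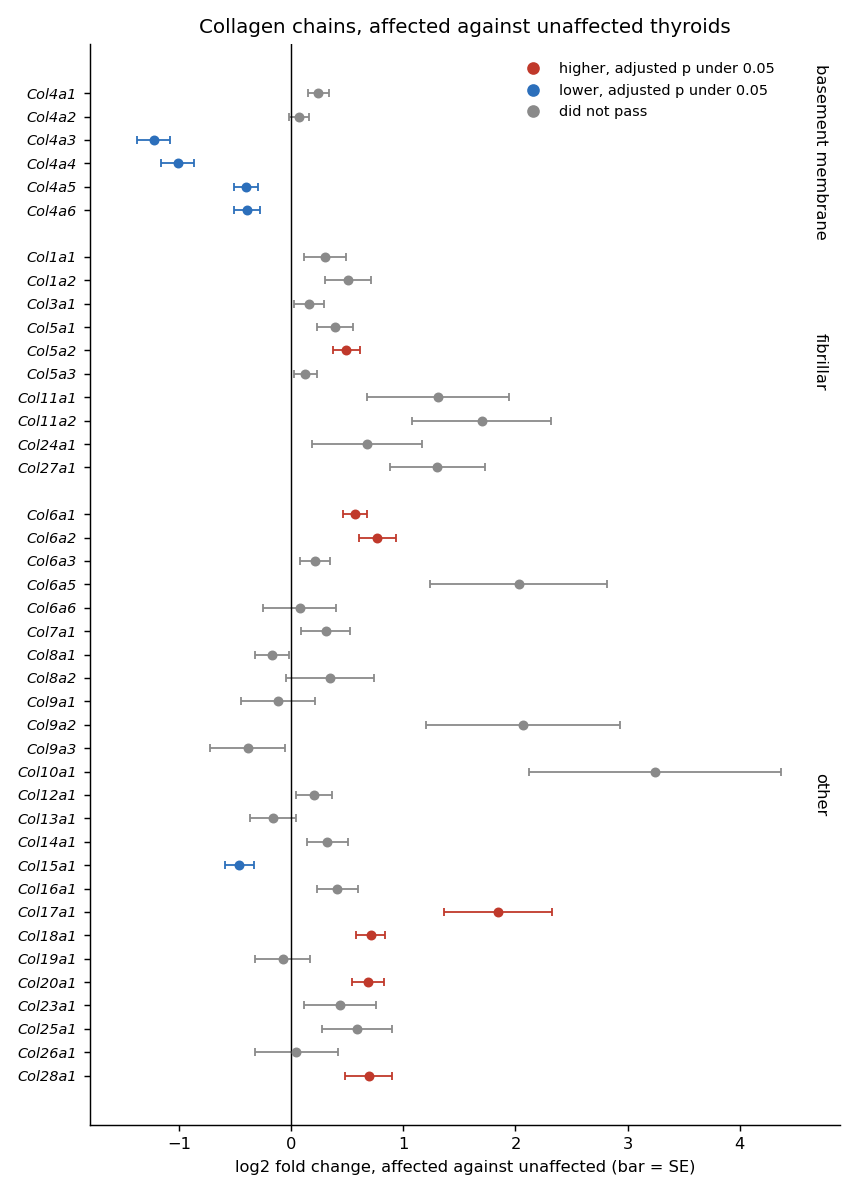
Log2 fold change of each of the 41 tested chains between 5 affected and 7 unaffected mice (x axis), with bars for the SE, by collagen group (y axis). Points left of 0 are lower in affected mice: 4 of the 6 basement membrane chains are lower, all 10 fibrillar chains lie right of 0 although only *Col5a2* passed the test, and the widest bars belong to chains that 1 mouse dominated.

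Per kilobase of transcript, *Col4a1* and *Col4a2* were the most abundant collagen chains of the thyroid. *Col4a1* had the highest level with a mean of 60.2 FPKM over the 12 mice, followed by *Col4a2* with 49.6 FPKM. *Col6a2* (29.9 FPKM), *Col1a2* (28.4), *Col3a1* (27.4), *Col18a1* (23.7), *Col4a4* (21.5), *Col6a1* (19.7), *Col4a6* (16.9) and *Col1a1* (14.7) followed. A mean of at least 1 FPKM was reached by 29 chains and one of at least 10 FPKM by 15. All chains together summed to 359 to 593 FPKM in affected and 341 to 430 FPKM in unaffected mice. Of this sum the 6 type IV chains held 28.6% to 42.7% in affected mice and 44.8% to 49.0% in unaffected mice, so that the groups did not overlap in this share. The lowest share was that of affected replicate 3, in which the chains that are neither fibrillar nor type IV held 51.5%.

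Among the type IV chains, both members of 2 of the 3 head-to-head pairs fell in affected mice, whereas the pair *Col4a1* and *Col4a2* did not pass the test. The chains of *Col4a1* and *Col4a2* make the network found in basement membranes throughout the body. Those of *Col4a3*, *Col4a4*, *Col4a5* and *Col4a6* replace or join it in particular epithelia, best known from the glomerulus of the kidney, where mutations in *Col4a3*, *Col4a4* or *Col4a5* cause Alport syndrome. Values of affected mice are given from here on in the order of replicates 1, 3, 4, 5 and 6.

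*Col4a3* (ENSMUSG00000079465, plus strand, chr1:82586921-82722059) was at 41.7, 53.6, 83.3, 56.7 and 46.8 CPM in the affected mice. In unaffected mice its lowest, median and highest levels were 121, 130.5 and 151 CPM. The highest affected mouse, replicate 4, thus stayed below the lowest unaffected mouse. The change was -1.23 ± 0.15 SE on the log2 scale, or 0.426-fold (edgeR adjusted p = 0.000286), and its group means were 7.09 FPKM ± 1.82 (SD, n = 5) and 16.8 FPKM ± 1.01 (SD, n = 7). *Col4a4* (ENSMUSG00000067158, minus strand, chr1:82448423-82586849) was at 92.2, 117, 177, 127 and 95.9 CPM in affected mice. Unaffected mice had 216 CPM at the lowest, 246 at the median and 281 at the highest. Replicate 4 was again the highest affected mouse, and again the groups did not overlap. The fold change was 0.495 (log2 -1.02 ± 0.15 SE, edgeR adjusted p = 0.00101). Both genes passed the test when any single mouse was left out, with adjusted p of at most 0.00159 for *Col4a3* and 0.00432 for *Col4a4*. An exon of *Col4a3* overlaps *C430014B12Rik* on the other strand, and since the strand used in counting is not stated, their reads cannot be told apart.

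The pair on the X chromosome fell less. *Col4a5* (plus strand, chrX:141475385-141689234) was at 57.9, 69.7, 75.0, 71.6 and 64.8 CPM in affected mice and at 70.8, 95.5 and 106 CPM at the lowest, median and highest of the unaffected mice. Only unaffected replicate 23 lay within the range of the affected mice. The log2 fold change was -0.40 ± 0.11 SE (edgeR adjusted p = 0.0264). *Col4a6* (minus strand, chrX:141165403-141474076) had 69.5, 85.0, 106, 91.0 and 71.2 CPM in affected mice and 93.9, 109 and 133 CPM at the lowest, median and highest of the unaffected ones. Affected replicate 4 overlapped with the unaffected mice, and the other 4 affected mice lay below all of them. The log2 fold change was -0.39 ± 0.12 SE (edgeR adjusted p = 0.0434). Both calls were close to the threshold. *Col4a5* missed it when affected replicate 1, 3 or 6 or unaffected replicate 22, 24 or 26 was left out, with adjusted p from 0.0521 to 0.0581. *Col4a6* missed it without affected replicate 1, 3, 5 or 6 or unaffected replicate 14, 22, 24, 25 or 26, with adjusted p from 0.0648 to 0.0902. Under 11 other settings *Col4a5* was called in 10, all but limma on log2(FPKM + 1) without a filter (adjusted p = 0.0598). *Col4a6* was called in 6, and missed the threshold with *Xist* as a covariate (0.0543), no filter on low counts (0.0657), only B6NCrl controls (0.0648), and limma with a pseudocount of 0.1 (0.0562) or without a filter (0.0734). Beyond these 11, both missed it when affected replicates 1 and 3 were dropped (edgeR adjusted p = 0.128 for *Col4a5* and 0.186 for *Col4a6*). Both also missed it when affected replicate 3 and unaffected replicate 14 were dropped (0.0883 and 0.116).

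**Figure D2:**
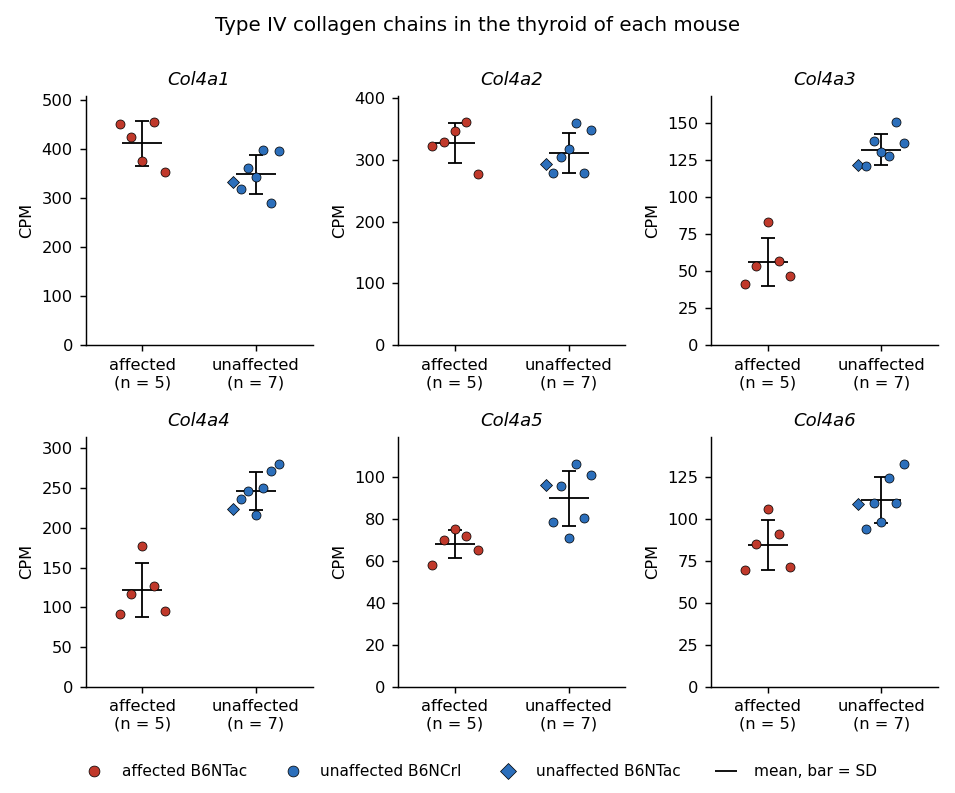
CPM of the 6 type IV chains (y axis, from 0) in each affected and unaffected mouse, with the group mean and SD. *Col4a3* and *Col4a4* are lower in each of the 5 affected mice than in any unaffected mouse, while *Col4a1* and *Col4a2* overlap between the groups.

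The most abundant pair did not pass the test. *Col4a1* was at 451, 424, 375, 454 and 352 CPM in affected and at 290.5, 342 and 398 CPM at the lowest, median and highest of the unaffected mice (log2 fold change 0.24 ± 0.10 SE, edgeR adjusted p = 0.119). *Col4a2* was at 321, 329, 347, 360.3 and 277 CPM in affected and at 279, 305 and 359.8 CPM in unaffected mice (0.07 ± 0.09 SE, edgeR adjusted p = 0.644). Affected replicates 1, 3 and 5 exceeded all unaffected mice in *Col4a1*, and for *Col4a2* the ranges nearly coincided. The fold change of *Col4a2* turned slightly negative under 1 other scaling, with library totals taken without *Tg* (-0.06 on the log2 scale), while the signs of the other 5 chains held under each setting tried.

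The composition of type IV RNA is described here as the share of each pair, with no test. Of the summed type IV FPKM, *Col4a1* and *Col4a2* held 72.1% ± 4.36 (SD, n = 5) in the affected group and 57.5% ± 2.62 (SD, n = 7) in the unaffected group. *Col4a3* and *Col4a4* held 12.7% ± 3.06 and 24.4% ± 2.41, and *Col4a5* and *Col4a6* held 15.3% ± 1.40 and 18.1% ± 1.22. For the first pair the lowest affected mouse (65.4%) lay above the highest unaffected mouse (60.8%), and for the second pair the highest affected mouse (17.7%) lay below the lowest unaffected mouse (22.1%).

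The 10 follicle markers had a median log2 fold change of -0.32, with 4 above 0 and 6 below it. DESeq2 called 1 of them higher and 2 lower. Their change as a group was not tested. *Pax8*, a transcription factor that defines the follicle cell, was at 175, 246, 417, 308 and 185 CPM in the affected mice and between 416.7 and 549 CPM in unaffected mice (log2 fold change -0.81 ± 0.19 SE, edgeR adjusted p = 0.0158). The affected mice thus had the same order in *Pax8* as in *Col4a3*, from replicate 4 down through 5, 3 and 6 to 1. *Tg*, *Foxe1* and *Duox2* had this order too, while the other follicle markers did not. *Tg* and *Foxe1* in replicate 4, at 254784 and 135 CPM, lay within the unaffected ranges of 209650 to 302995 and 101 to 155 CPM. In affected replicate 4 *Pax8* was just above its level in the lowest unaffected mouse. *Col4a3* was at 83.3 CPM in this mouse and at 121 CPM in the lowest unaffected mouse. Of the 10 follicle markers, *Pax8* was lower, *Slc26a4* (pendrin, the iodide exporter) was higher (3.69 ± 0.65 SE, edgeR adjusted p = 0.00301) and 8 did not pass the test, among them *Foxe1* (-0.61 ± 0.21 SE, edgeR adjusted p = 0.0696) and *Nkx2-1* (-0.41 ± 0.20 SE, edgeR adjusted p = 0.199). *Slc26a4* had few counts, at most 77, and was at 0.606 to 3.34 CPM in affected and 0 to 0.293 CPM in unaffected mice. No follicle marker was at 0 in all mice. Without *Tg* the markers summed to 820.2 to 1659 CPM in affected and 1211 to 1959 CPM in unaffected mice. Endothelial markers, of which *Kdr* alone passed the test (log2 fold change -0.60, edgeR adjusted p = 0.0413) among 10, summed to 589.5 to 877 CPM and 613 to 830.2 CPM. The part of either cell type in the type IV values was not tested.

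Partner chains were compared within each mouse as the ratio of their FPKM values, which are corrected for length. Of 10 pairs, 9 had at least 10 counts of both chains in every mouse, and the pair *Col9a2*/*Col9a3* did not. *Col4a3*/*Col4a4* was the only ratio that differed at an adjusted p under 0.05 (exact two-sided permutation test over 792 splits, p = 0.00379, Benjamini-Hochberg adjusted p = 0.0341 over the 9 pairs). It ranged from 0.503 to 0.55 in affected mice and from 0.562 to 0.678 in unaffected mice, a mean difference of -0.23 on the log2 scale, so *Col4a3* was the more strongly reduced gene of its pair. Without affected replicate 1, 3 or 5 the adjusted p was 0.0545. *Col4a5*/*Col4a6* differed by -0.02 on the log2 scale (exact permutation adjusted p = 0.835). The ratios of *Col6a2*/*Col6a3* (0.52, adjusted p = 0.0513), *Col4a1*/*Col4a2* (0.18, 0.0645) and *Col1a1*/*Col1a2* (-0.17, 0.0711) came near the threshold in the same exact permutation test. Those of *Col5a1*/*Col5a2* (-0.14, adjusted p = 0.266), *Col6a1*/*Col6a2* (-0.15, 0.438), *Col8a1*/*Col8a2* (-0.31, 0.514) and *Col11a1*/*Col11a2* (-0.36, 0.552) lay farther from it in this exact test.

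Type VI collagen rose in 2 of its chains. This collagen forms beaded filaments that anchor cells to the stroma around the basement membrane, and its core molecule needs the products of *Col6a1*, *Col6a2* and *Col6a3*. *Col6a1* (minus strand, chr10:76708792-76726168) was at 85.6, 129, 102, 90.2 and 89.5 CPM in affected mice. Unaffected mice had between 59.0 and 76.9 CPM with a median of 66.6, so that each affected mouse exceeded them all. The log2 fold change was 0.57 ± 0.10 SE (edgeR adjusted p = 0.00406). *Col6a2* (minus strand, chr10:76595762-76623630) was at 103, 233, 180.1, 183 and 122 CPM in affected and at 84.9, 98.2 and 110.8 CPM at the lowest, median and highest of the unaffected mice. Only affected replicate 1 fell among the unaffected mice. Its log2 fold change was 0.77 ± 0.17 SE (edgeR adjusted p = 0.0102). *Col6a3* was at 56.6 to 94.9 CPM in affected and 52.7 to 79.7 CPM in unaffected mice and did not pass the test (0.21 ± 0.13 SE, edgeR adjusted p = 0.322). *Col6a2* was called without each mouse in turn, and *Col6a1* too, but with library totals taken without *Tg* the adjusted p of *Col6a1* was 0.0504, and in limma on log2(FPKM + 1) without a filter that of *Col6a2* was 0.0541.

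The multiplexins, *Col15a1* and *Col18a1*, went opposite ways. Both encode basement membrane collagens with a heparan sulfate or chondroitin sulfate chain, and the end of the *Col18a1* product is released as endostatin. *Col18a1* (minus strand, chr10:77052178-77166548) was at 143, 168, 188, 164 and 107 CPM in affected mice against 76.7, 93.7 and 110.9 CPM at the lowest, median and highest of the unaffected mice. Affected replicate 6 alone lay within the unaffected range. It rose by 0.71 ± 0.13 SE on the log2 scale (edgeR adjusted p = 0.00431). The chain passed the test in all refits, namely 12 that left out 1 mouse each and 11 with other settings. Of the 11, that with B6NCrl mice as the only controls is the same fit as leaving out unaffected replicate 14. *Col15a1* (plus strand, chr4:47208161-47313167) was at 38.2, 35.8, 52.6, 36.9 and 43.2 CPM in affected and at 42.6, 55.4 and 68.5 CPM in unaffected mice. Affected replicates 4 and 6 overlapped with the unaffected mice. The log2 fold change was -0.46 ± 0.13 SE (edgeR adjusted p = 0.0333), and without affected replicate 1, 3 or 5 or unaffected replicate 23, 24 or 26 the adjusted p lay between 0.0598 and 0.0884. In the 3 limma settings it lay between 0.0609 and 0.105. An exon of *Col15a1* overlaps *Gm12426* on the other strand.

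**Figure D3:**
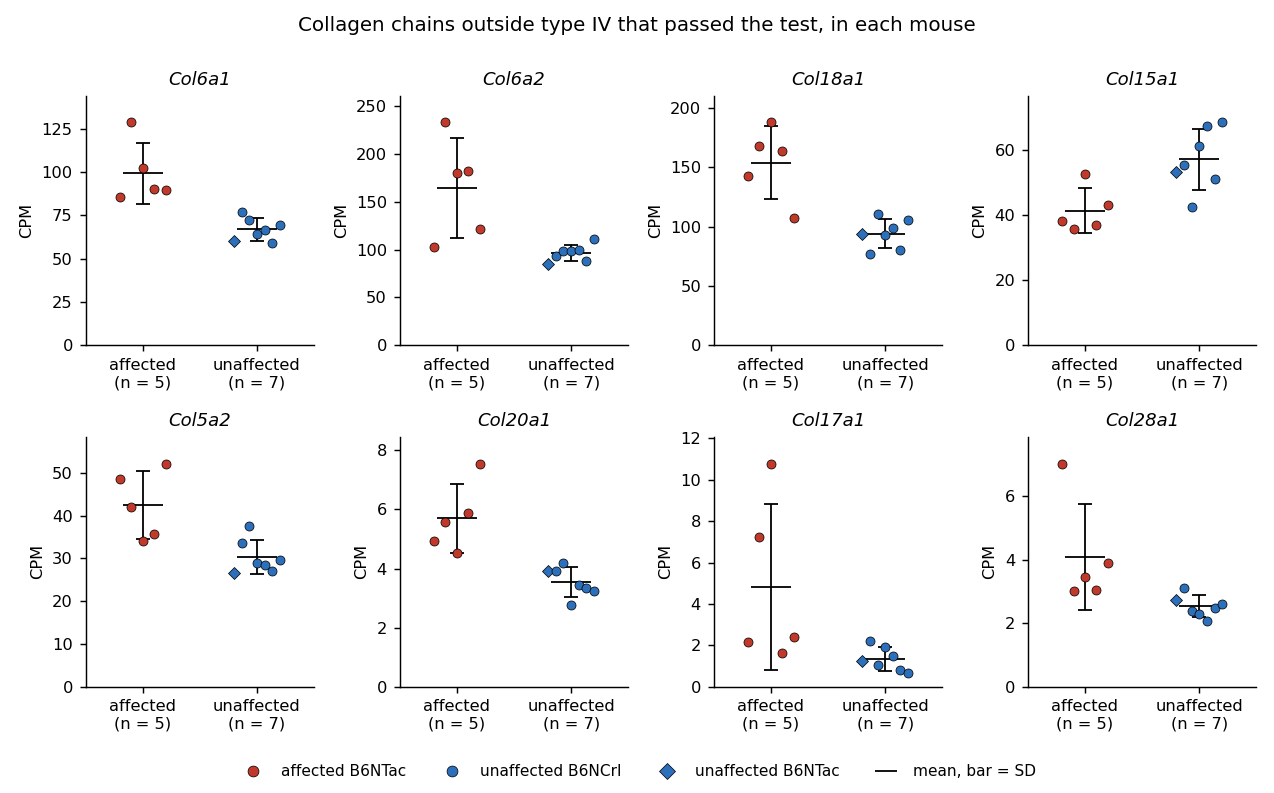
CPM of the 8 chains outside type IV that passed the test (y axes, from 0), in each affected and unaffected mouse, with the group mean and SD. In *Col6a1* and *Col20a1* each affected mouse lies above all unaffected mice, and in *Col17a1* and *Col28a1* 1 or 2 affected mice stand well above the rest.

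Among the fibrillar chains only *Col5a2* passed the test, 1 of 10 tested. This is near the share of all genes tested that were higher, 7.63%. All 10 had a log2 fold change above 0 with a median of 0.50, beside a median of 0.01 over all genes tested. With library totals taken without *Tg* the sign of *Col3a1* turned and *Col5a2* missed the threshold (adjusted p = 0.056), as it did in limma without a filter (0.0658). None was lower in edgeR, none was lower at an unadjusted p under 0.05, and none was called lower by DESeq2 or limma. *Col5a2*, a minor chain that sets the diameter of type I fibrils (minus strand, chr1:45374321-45503282), was at 48.6, 42.0, 34.0, 35.8 and 52.1 CPM in affected and at 26.6, 28.9 and 37.6 CPM in unaffected mice. Replicates 4 and 5 overlapped with the unaffected mice, and the change was 0.49 ± 0.12 SE (edgeR adjusted p = 0.0189). The main chains of connective tissue fibres differed by less than the spread between mice allowed to call. *Col1a1* was at 144, 87.2, 78.7, 69.3 and 99.1 CPM against 59.8, 76.1 and 105 CPM (log2 fold change 0.30 ± 0.19 SE, edgeR adjusted p = 0.321). *Col1a2* was at 269, 138, 128, 124 and 197 CPM against 97.2, 124 and 169 CPM (0.51 ± 0.21 SE, edgeR adjusted p = 0.124). In both genes affected replicates 1 and 6 were the highest affected mice. *Col3a1* was at 158, 127, 155, 116 and 202 CPM against 110.0, 146 and 152 CPM (0.16 ± 0.13 SE, edgeR adjusted p = 0.481). *Col5a1*, the partner of *Col5a2*, was at 38.0 to 71.3 CPM in affected and 33.2 to 49.7 CPM in unaffected mice (0.39 ± 0.16 SE, edgeR adjusted p = 0.135). Without affected replicate 3 the median of the 10 chains was 0.41 with 9 above 0, and without affected replicates 1 and 3 it was 0.24 and *Col5a2* did not pass the test.

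Fibroblasts are the main source of fibrillar and type VI collagen. Of the 12 fibroblast markers, 5 were higher in affected mice (41.7%, beside 7.63% of all genes tested) and 7 did not pass the test, with a median log2 fold change of 0.58 over the 12. They were *Gsn* (0.67 ± 0.10 SE, edgeR adjusted p = 0.00101), *Dcn*, *Mfap5*, *Dpt* and *Pdgfra*. *Lum* and *Thy1* had log2 fold changes of -0.19 and -0.79 (edgeR adjusted p = 0.567 and 0.394), and no marker of the list was at 0 in all mice. The summed level was 1602 to 2312 CPM in affected and 1062 to 1443 CPM in unaffected mice and did not overlap. *Gsn* alone made up 1001 to 1431 CPM and 678 to 907 CPM of these sums, and without it the sums overlapped, at 567.97 to 881 CPM and 384 to 569.9 CPM. Pericyte and smooth muscle markers were called for *Mcam* alone among 10 (0.38 ± 0.12 SE, edgeR adjusted p = 0.0466) and summed to 555 to 1719 CPM in affected and 482 to 1190.0 CPM in unaffected mice. The part of either cell type in the fibrillar and type VI values was not tested.

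A group of chains known from cartilage was dominated by a single mouse. *Col10a1*, the collagen of hypertrophic cartilage, was at 5.46, 322, 4.54, 4.92 and 5.45 CPM in affected mice and at 5.30, 6.996 and 10.997 CPM at the lowest, median and highest of the unaffected mice. Replicate 3 thus held 29.3 times the level of the next mouse, whereas the other 4 affected mice lay below the median of the unaffected ones. The log2 fold change of 3.24 ± 1.13 SE (edgeR adjusted p = 0.0816) became -0.51 without this mouse (adjusted p = 0.105). *Col9a2* was at 0.873, 14.3, 0.361, 0.302 and 0.881 CPM in affected and at 0.537 to 1.08 CPM in unaffected mice. The other type IX chains, *Col9a1* and *Col9a3*, were not dominated by replicate 3. *Col9a1* was at 6.28 CPM in it and highest, at 6.69 CPM, in unaffected replicate 21. *Col9a3* was at 8.32 CPM in replicate 3 and at 6.09 CPM in the next mouse. Their log2 fold changes were -0.12 and -0.39 (edgeR adjusted p = 0.851 and 0.482). *Col11a1* reached 40.0 CPM in replicate 3 and 1.98 to 6.39 CPM in the other affected mice, beside 2.30 to 6.00 CPM in unaffected mice. *Col11a2* reached 26.9 CPM there, beside 1.65 to 4.85 CPM in the other affected and 1.66 to 4.42 CPM in the unaffected mice. *Col27a1* was at 26.6, 64.1, 7.22, 16.8 and 12.9 CPM in affected and 7.59 to 13.5 CPM in unaffected mice (log2 fold change 1.30 ± 0.42 SE, edgeR adjusted p = 0.0635). Without replicate 3 the log2 fold changes of *Col9a2*, *Col11a1*, *Col11a2* and *Col27a1* moved from 2.07, 1.31, 1.70 and 1.30 to -0.40, -0.11, 0.37 and 0.62. *Col27a1* passed the test without affected replicate 4 (adjusted p = 0.015) or 6 (adjusted p = 0.0462), and *Col11a2* without affected replicate 4 (adjusted p = 0.0406).

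**Figure D4:**
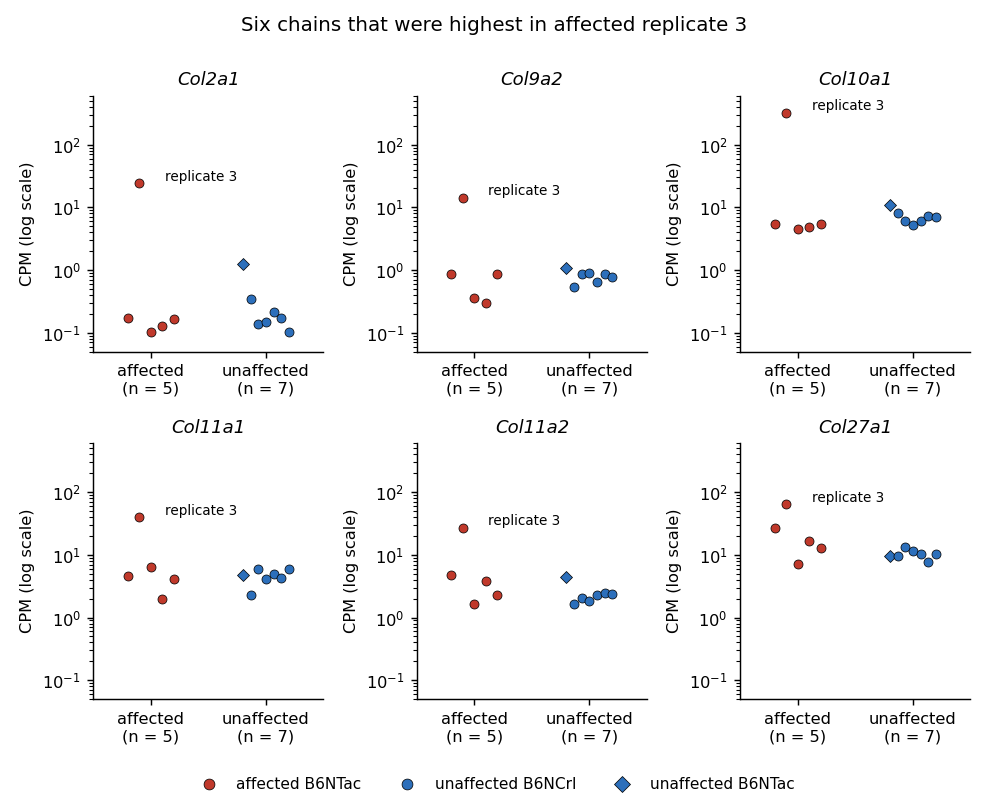
CPM of 6 chains typical of cartilage or highest with them, on a log scale (y axis), in each affected and unaffected mouse. Affected replicate 3 is the highest of the 12 mice in all 6. In *Col27a1* affected replicates 1 and 5 also lie above the unaffected mice.

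Cartilage markers had the same outlying mouse. *Acan*, the aggregating proteoglycan of cartilage, was at 319.9 CPM in affected replicate 3 and at 0.0516 to 5.67 CPM in the other 11 mice. Of the 10 cartilage markers 6 passed the filter on low counts and none was called by edgeR, although 4 had an unadjusted p under 0.05 and DESeq2 called 2. None was at 0 in all mice. The unaffected B6NTac mouse was second in *Acan* with 5.67 CPM and also in *Col2a1*, *Col9a2* and *Col10a1*, at 1.25, 1.08 and 10.997 CPM. The part of cartilage in these values was not tested. *Nt5dc1* overlaps exons of *Col10a1* on the other strand.

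The 3 chains that the filter removed were each high in few mice. *Col2a1*, the main fibrillar collagen of cartilage, was at 24.1 CPM in affected replicate 3 and at 0.103 to 1.25 CPM elsewhere. *Col6a4* was at 3.54 CPM in affected replicate 1 and at 0.65 CPM or less elsewhere. *Col22a1*, a collagen of the junction between muscle and tendon, was at 4.29 CPM in unaffected replicate 22, at 3.14 CPM in affected replicate 6 and at 2.49 CPM in unaffected replicate 25. The same 3 mice had the highest sums of skeletal muscle markers, with 39677, 99382 and 33868 CPM, while the other 9 mice lay between 22.5 and 16624 CPM. No muscle marker passed the test in edgeR, at an unadjusted p under 0.05 or in DESeq2.

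Of the less abundant chains 3 passed the test. *Col20a1*, a fibril-associated collagen (plus strand, chr2:180986535-181018363), was at 4.93, 5.59, 4.54, 5.87 and 7.54 CPM in affected and at 2.75, 3.43 and 4.20 CPM in unaffected mice. The groups did not overlap, the log2 fold change was 0.68 ± 0.14 SE (edgeR adjusted p = 0.00858), and the chain was called in all refits. Its highest count in a library was 137, and *BX649560.1* on the same strand shares sequence with its exons, so that its level is uncertain. *Col17a1*, the transmembrane collagen of hemidesmosomes (minus strand, chr19:47646344-47692094), was at 2.14, 7.23, 10.8, 1.64 and 2.42 CPM in affected and at 0.669, 1.25 and 2.20 CPM in unaffected mice. Replicates 3 and 4 stood above the rest, and the log2 fold change was 1.85 ± 0.48 SE (edgeR adjusted p = 0.0256). Without affected replicate 3 or 4 or unaffected replicate 26 the adjusted p was 0.0652, 0.0508 and 0.052, and in the 3 limma settings it lay between 0.104 and 0.225. *Krt5*, a keratin of basal epithelial cells, was at 31.0 and 18.8 CPM in affected replicates 3 and 4 and at 1.83 to 5.01 CPM in the other affected mice, and it was highest, at 41.0 CPM, in unaffected replicate 21, which also had the highest *Col17a1* of the unaffected mice. *Col28a1*, a collagen known from peripheral nerve (minus strand, chr6:7997808-8192617), was at 7.03, 3.03, 3.45, 3.06 and 3.91 CPM in affected and at 2.06, 2.49 and 3.13 CPM in unaffected mice. Replicate 1 was the highest, and the log2 fold change was 0.69 ± 0.21 SE (edgeR adjusted p = 0.0456). It was 0.41 without replicate 1 (adjusted p = 0.0836), and without affected replicate 6 or unaffected replicate 14, 22, 23, 24, 25 or 26 the adjusted p lay between 0.0599 and 0.0815. It was called in only 2 of 11 other settings, with adjusted p from 0.0604 to 0.359 in the remaining 9. Schwann cell markers summed to 496 CPM in affected replicate 1 and to 137 to 224 CPM in the other 11 mice. In this list of 8 *Pmp22* was higher, *S100b* was lower and 6 did not pass the test. Airway epithelium markers, to which *Krt5* was counted, were called higher for *Scgb3a1* and *Bpifa1*, 2 of the 5 tested, and both were highest in affected replicate 3. The summed airway markers were highest in unaffected replicate 23, at 35092 CPM, but *Muc5b* alone made up 35085.5 CPM of this sum. In affected replicate 3 the airway markers summed to 1842 CPM. The part of nerve or epithelium in *Col28a1* and *Col17a1* was not tested.

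Genes related to collagen were described by role, from its modification, export, processing, cross-linking and breakdown to its receptors and TGF-beta signals. Of 92 genes in 8 lists 87 were tested and 27 were higher in affected mice, 31.0% beside 7.63% of all genes. None was lower in edgeR, 1 was lower at an unadjusted p under 0.05, and none was called lower by DESeq2 or by limma on FPKM. In the endoplasmic reticulum, prolyl hydroxylases stabilise the helix, lysyl hydroxylases prepare its cross-links and glycosyltransferases decorate it. Of the 14 enzymes of this list tested, 5 were higher. *P4hb*, the subunit of prolyl hydroxylase that is also protein disulfide isomerase, was at 449, 754, 789, 738 and 456 CPM in affected and between 241 and 343 CPM in unaffected mice (log2 fold change 1.15 ± 0.16 SE, edgeR adjusted p = 0.000753). The groups did not overlap. The catalytic subunits *P4ha2* (0.84 ± 0.21 SE, edgeR adjusted p = 0.0198) and *P4ha1* (0.58 ± 0.08 SE, edgeR adjusted p = 0.000519) and the prolyl isomerase *Ppib* (0.76 ± 0.16 SE, edgeR adjusted p = 0.00972) also rose, as did *Plod3*. *P4hb* and *Ppib* act on many secreted proteins besides collagen. Of 14 chaperones and export factors 3 were higher, namely *Sec24d* (0.58 ± 0.13 SE), *Mia2* (0.53 ± 0.08 SE) and *Sec31a* (0.32 ± 0.08 SE), all of the vesicle coat or its cargo receptor, while the collagen chaperone *Serpinh1* had a log2 fold change of 0.14 ± 0.09 SE (edgeR adjusted p = 0.332).

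Outside the cell, propeptides are cut off, and fibrils are cross-linked and coated. Of 8 processing genes 3 were higher, the enhancers *Pcolce2* (0.96 ± 0.24 SE) and *Pcolce* (0.35 ± 0.10 SE) and the protease *Adamts2* (0.66 ± 0.17 SE). Cross-linking enzymes held the largest share of calls among the 8 lists, 4 of 7. Lysyl oxidase *Lox* was at 63.9, 65.6, 20.5, 36.3 and 29.7 CPM in affected and between 12.1 and 21.4 CPM in unaffected mice (log2 fold change 1.502 ± 0.27 SE, edgeR adjusted p = 0.00363). Affected replicate 4 alone overlapped with the unaffected mice. *Loxl4* rose by 1.39 ± 0.33 SE, the transglutaminase *Tgm2* by 1.11 ± 0.17 SE, and peroxidasin *Pxdn*, which cross-links type IV collagen, by 0.36 ± 0.08 SE. Of 13 fibril-associated proteins 5 were higher. The largest of these changes was that of fibronectin *Fn1*, which was at 291, 345, 161.5, 161.0 and 259 CPM in affected and between 83.8 and 142 CPM in unaffected mice, with no overlap (1.04 ± 0.20 SE, edgeR adjusted p = 0.00493). *Dpt* (0.74 ± 0.22 SE), *Tnxb* (0.63 ± 0.19 SE) and *Aspn* (0.61 ± 0.17 SE) rose too, as did *Dcn*. *Dcn* and *Dpt* are also in the fibroblast list.

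**Figure D5:**
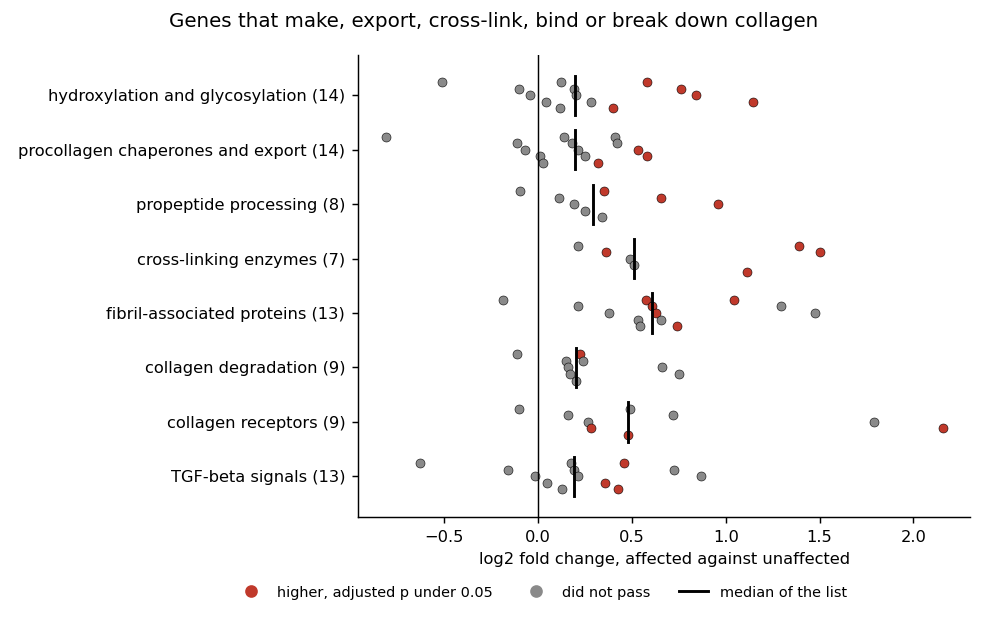
Log2 fold change between affected and unaffected mice (x axis) of each tested gene in 8 lists of collagen-related genes (y axis, number tested in parentheses), with the median of the list. Of the 87 genes 27 are higher and none is called lower, and the 8 medians lie between 0.19 and 0.61.

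Collagen degradation was called for 1 gene of 9, the peptidase *Pepd* (0.23 ± 0.07 SE, edgeR adjusted p = 0.0379), and the collagenase genes *Mmp2* and *Mmp14* had log2 fold changes of 0.16 ± 0.12 SE and 0.20 ± 0.10 SE (edgeR adjusted p = 0.418 and 0.193). Of 9 receptors 3 were higher, namely *Itga10* (2.16 ± 0.64 SE), *Ddr2* (0.48 ± 0.09 SE) and *Itgb1* (0.28 ± 0.07 SE). *Itga10*, an integrin of cartilage, was at 20.1 CPM in affected replicate 3 and at 1.21 to 3.97 CPM in the other affected mice, beside 0.879 to 1.71 CPM in unaffected mice. Of 13 TGF-beta genes *Tgfb3* (0.46 ± 0.09 SE), *Tgfbr2* (0.42 ± 0.12 SE) and *Ltbp4* (0.35 ± 0.11 SE) were higher. Macrophage markers, whose cells also supply matrix proteases, were higher for 5 of 8 (62.5%, beside 7.63% of all genes tested), with the largest change in *Cd68* (0.98 ± 0.21 SE, edgeR adjusted p = 0.0101), and summed to 185 to 272 CPM in affected and 87.0 to 189 CPM in unaffected mice. Adipocyte and parathyroid markers were called for none in edgeR. At an unadjusted p under 0.05 there were 3 adipocyte and 0 parathyroid markers, and DESeq2 called 1 and 0. When affected replicate 3 and the unaffected B6NTac mouse were left out together, 14 of 86 tested pathway genes were called, all higher. Of all 19661 genes tested under this setting, 820 were higher. With library totals taken without *Tg*, 12 of 86 pathway genes were called, all higher, beside 604 of all 19651 genes tested.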

How the data were processed

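Total RNA from 12 thyroids was depleted of ribosomal RNA and sequenced (KAPA RNA HyperPrep with RiboErase, NextSeq). The authors aligned the reads with OSA4 in Array Studio to a mouse genome named with Ensembl release 96 and deposited estimated counts and FPKM per gene. The deposited gene coordinates match GENCODE M21 on GRCm38. Whether counting used strand is not given in the sources used here, nor is what the table's mark "confounded", set for 28 of the 44 chains, stands for. Between 81.0% and 84.7% of the deposited estimated counts in a library were whole numbers (tolerance 0), and the rest were rounded for testing. The counts of all genes were fitted with edgeR 4.0.16 (R 4.3.3; TMM factors, filterByExpr with a minimum count of 10) and tested by quasi-likelihood. P-values were adjusted by Benjamini and Hochberg's method across the 19661 genes, at a threshold of 0.05. The study's methods name no test for the RNA sequencing counts. The SE of a log2 fold change was calculated back from this test, as its absolute value divided by the square root of the F statistic. FPKM were used as the authors gave them for levels, shares and ratios between chains. The ratios were compared with exact two-sided permutation tests over all splits of the mice, written in Python 3.11.15. The fit was first tested on simulated data. Alternatives were DESeq2 1.42.0, limma 3.58.1 on log2 FPKM with a pseudocount of 1 or 0.1 and a minimum mean of 0.5 FPKM or no filter, other filters and scalings, *Xist* as a covariate, B6NCrl mice as the only controls, and each mouse left out. B6NCrl mice as the only controls and leaving out unaffected replicate 14 are the same fit, counted under both headings. Dropping affected replicates 1 and 3, or affected replicate 3 and unaffected replicate 14, was chosen after seeing the data. Labels do not say that samples beyond the mouse were replicated, so p-values measure the spread between these mice. The chains named were all that were called, the 10 with the highest mean FPKM, those of the tested pairs and those removed by the filter, with up to 4 called genes of largest change from each list. Chains with an outlying mouse, called genes of a list beyond 4, *Col9a1*, *Col9a3*, *Acan*, *Sox9*, *Krt5*, *Muc5b*, *Lum*, *Thy1*, *Foxe1*, *Nkx2-1*, *Duox2*, *Serpinh1*, *Mmp2* and *Mmp14* fall outside this rule and were chosen after their values were seen. The chains and lists were chosen with earlier results of these data known. Sequences came from GENCODE M21 and RefSeq; amino acid sequences were not used here.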

Additional observations from a re-analysis of the deposited data

Results flagged for a closer look

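In 14 of 88 groups of values, 1 group for each chain and phenotype, the highest mouse lay farther from the next than Dixon's critical value allows (0.71 of the range for 5 mice and 0.568 for 7). About 4.4 would be reached by chance if the groups were independent and their values normally distributed. Neither condition was tested, so the 2 numbers cannot be compared directly. Affected replicate 3 accounted for 6 of the 14, with *Col10a1* at 322 CPM, *Col11a1* at 40.0 CPM, *Col11a2* at 26.9 CPM, *Col2a1* at 24.1 CPM, *Col9a2* at 14.3 CPM and *Col8a2*, a short-chain collagen, at 5.80 CPM. Affected replicate 1 accounted for 3, with *Col6a5* at 10.6 CPM, *Col28a1* at 7.03 CPM and *Col6a4* at 3.54 CPM. *Col22a1* stood out in affected replicate 6 at 3.14 CPM. Among unaffected mice, replicate 22 stood out in *Col1a2* at 169 CPM and *Col5a1* at 49.7 CPM, and the B6NTac mouse, replicate 14, in *Col11a2* at 4.42 CPM and *Col2a1* at 1.25 CPM.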

How the results depend on the processing

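No paired analysis was possible because the groups share no replicate numbers. No chain reversed its called direction. Of 312 values for named chains with 1 mouse left out, 273 kept direction and side of the threshold, and of 333 under other settings 284 did. With 1 mouse left out, the called chains numbered 7 to 15, the lower ones 2 to 5, type IV chains 2 to 4, fibrillar chains 1 to 3, lower pathway genes 0 to 1 and called marker genes 10 to 27 (8 to 20 higher, 2 to 7 lower). Over all genes tested the calls numbered 1774 to 3390 with 1 mouse left out, against 2699 in the main test. The log2 ratio differences then ranged from -0.21 to -0.14 for *Col1a1*/*Col1a2*, 0.14 to 0.24 for *Col4a1*/*Col4a2*, -0.25 to -0.20 for *Col4a3*/*Col4a4*, -0.0449 to 0.0319 for *Col4a5*/*Col4a6*, 0.42 to 0.68 for *Col6a2*/*Col6a3* and -0.72 to 0.0421 for *Col11a1*/*Col11a2*. Dropping affected replicates 1 and 3, or affected replicate 3 and unaffected replicate 14, left 6 called chains (4 higher, 2 lower), 2 type IV and 0 fibrillar chains, and 7 marker genes (6 higher, 1 lower). The first gave 1 lower pathway gene, and the second 14 pathway genes. Both kept *Col4a3*, *Col4a4*, *Col6a1*, *Col6a2*, *Col18a1* and *Col20a1* as the called chains. Over all genes tested, the first called 1564 and the second 1399, against 2699 in the main test. Library totals without *Tg* called 2313 of all genes, limma on log2(FPKM + 1) without a filter 1697 and DESeq2 3603. Library totals without *Tg* gave 4 higher chains, 0 fibrillar chains, 12 pathway genes and 9 marker genes (6 higher), and 26.1% of all calls were higher, against 55.6% in the main test and 43.2% with upper-quartile factors. limma on log2(FPKM + 1) without a filter gave 5 chains (3 higher, 2 lower), 2 type IV and 0 fibrillar chains, 11 pathway genes and 7 marker genes (5 higher). With the filter it gave 15 pathway and 11 marker genes (7 higher), and with the pseudocount 0.1 it gave 3 lower chains, 15 pathway genes and 9 marker genes (6 higher). DESeq2 gave 3 fibrillar chains and 29 marker genes (24 higher, 5 lower). Library totals without TMM factors gave 9 higher marker genes, and B6NCrl mice as the only controls gave 10 (8 higher). With counts + 0.5 in place of FPKM, *Col1a1*/*Col1a2* (-0.185), *Col4a1*/*Col4a2* (0.17) and *Col6a2*/*Col6a3* (0.52) passed the exact permutation test (adjusted p = 0.0369 each) and *Col4a5*/*Col4a6* was 0.0045. It was 0.0109 with B6NCrl mice only. The cause of these shifts was not tested. Chains with few counts, such as *Col20a1*, are limited by depth.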
